A study of Homo sapiens with 56 samples.

Results

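The G2/M and mitosis genes are 60 genes whose products carry a cell from the end of DNA replication through chromosome segregation to the separation of the daughter cells. They were given as a list of names, proposed with earlier results of these data known, and each of the 60 had an entry in both count tables, of 59409 gene symbols in the Mv4;11 table and 59081 in the KG-1 table. Mv4;11 and KG-1 are established human acute myeloid leukaemia lines. Each line received PMR-116 or CX-5461, both at 1 µM, or their vehicle, a buffer of 50 mM citric acid and 50 mM NaH2PO4, and was sampled after 3 h and after 12 h. PMR-116 and CX-5461 are inhibitors of RNA polymerase I, which transcribes the ribosomal RNA precursor, and the series compared treated with vehicle cells by sequencing of polyadenylated RNA. The compounds had separate vehicle libraries, so that no vehicle library served both. There were 3 libraries in each of the 8 Mv4;11 groups and 4 in each of the 8 KG-1 groups, 56 in all. The labels mark the KG-1 libraries as a batch 2 and give no batch mark to Mv4;11, so that line and batch cannot be told apart.

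A dividing cell makes most mitotic messages in G2 and degrades many of their proteins as it leaves mitosis. Cyclin B with CDK1 drives entry, polo-like and Aurora kinases build the spindle, and kinetochores tie chromosomes to it under a checkpoint that holds back the anaphase-promoting complex until every chromosome is attached. Central spindle kinesins and actin regulators then divide the cell, and the genes are switched on late in the cycle by MuvB complexes with B-Myb and FOXM1 and held down in arrested cells by the DREAM complex.

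Of a longer list of cell type markers only some are given here, and those of epithelium and fibroblasts are left out. Both lines had RNA of the leukocyte and myeloid genes PTPRC, CD33 and SPI1, and the erythroid marker HBB was at 0 in every library. CD34, a progenitor marker, was at 1.19 CPM (counts scaled to library size) or less in Mv4;11 and between 1800 and 2490 CPM in KG-1, and the lymphoid gene CD3D reached 58.5 to 74.8 CPM in KG-1. The deposited counts summed to between 28751758 and 41542156 per library in Mv4;11 and between 31010072 and 72707757 in KG-1. In 1 library, replicate 3 of the PMR-116 vehicle at 12 h in Mv4;11, abundant noncoding RNAs stood apart, with 1130 CPM of MALAT1. Of the 60 genes, 60 passed the filter on low counts in Mv4;11 and 59 in KG-1, where PSRC1 was at or near 0. Nothing in the labels says that replicates came from separate cultures, so p-values measure the spread between these samples. In bulk RNA, fewer cells in G2 and mitosis and less RNA per such cell cannot be told apart.

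The promoters of many of these genes share a pair of short elements. One is the cell cycle genes homology region (CHR), the element that MuvB complexes contact, searched here as TTTGAA or TTCGAA. The other is the CCAAT box that the factor NF-Y contacts, searched as CCAAT. Both strands were read, and the letters of the 2 elements can overlap. Windows from 250 bases before to 50 after the annotated start, from RefSeq (GRCh38.p14), were found for 49 of the 60 genes. Of those 49, 37 (75.5%) held the CHR letters, against 19.5% of 27305 genes with a window. CCAAT occurred in 41 of the 49 (83.7%), against 39.7%, and both occurred in 33 (67.3%), against 9.0%. A match was placed by its first letter. In 22 of the 49 (44.9%) the CHR letters began in the last 40 bases before the start, against 2.8% of the 27305 genes. In 30 (61.2%) CCAAT began between 80 and 41 bases before the start, against 13.4%. A match is a description of letters and no measurement of binding, and these shares were not tested.

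Below are the 120 bases before the annotated start of 8 genes, printed 5′ to 3′ on the gene's own strand with the CHR and CCAAT letters of either strand in capitals. They were chosen to set genes with the letters of both elements (PLK1, CDCA8, KIF23, PSRC1 and PIF1) beside KIF20A, SPC24 and CENPE. The windows of KIF20A and SPC24 hold the CCAAT letters alone, and that of CENPE holds the letters of neither. Other spellings of the elements were not searched, so a window without these letters is not shown to lack an element. KIF23, PSRC1, PIF1, KIF20A and CENPE were the 5 genes lowered at least 2-fold by CX-5461 at 3 h in Mv4;11, and SPC24 was not lowered there.
PLK1, chr16:23678769-23678888, plus strand: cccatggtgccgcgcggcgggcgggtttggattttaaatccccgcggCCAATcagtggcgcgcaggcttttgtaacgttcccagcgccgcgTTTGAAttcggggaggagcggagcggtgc
CDCA8, chr1:37692396-37692515, plus strand: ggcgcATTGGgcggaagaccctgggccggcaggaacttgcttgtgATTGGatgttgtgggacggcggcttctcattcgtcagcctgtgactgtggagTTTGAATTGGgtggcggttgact
KIF23, chr15:69414229-69414348, plus strand: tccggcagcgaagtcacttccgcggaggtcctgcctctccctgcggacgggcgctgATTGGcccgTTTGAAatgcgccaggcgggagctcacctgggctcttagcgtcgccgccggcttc
PSRC1, chr1:109283146-109283265, minus strand: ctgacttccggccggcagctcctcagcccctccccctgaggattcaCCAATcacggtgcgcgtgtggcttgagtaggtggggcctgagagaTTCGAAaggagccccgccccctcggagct
PIF1, chr15:64825648-64825767, minus strand: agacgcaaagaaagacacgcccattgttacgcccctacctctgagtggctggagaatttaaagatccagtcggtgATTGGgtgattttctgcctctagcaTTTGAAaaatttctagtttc
KIF20A, chr5:138178992-138179111, plus strand: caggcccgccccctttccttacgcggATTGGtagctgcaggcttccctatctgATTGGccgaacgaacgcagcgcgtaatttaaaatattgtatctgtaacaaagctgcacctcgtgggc
CENPE, chr4:103198344-103198463, minus strand: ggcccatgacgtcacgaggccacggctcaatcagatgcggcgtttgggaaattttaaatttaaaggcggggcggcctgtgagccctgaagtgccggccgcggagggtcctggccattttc
SPC24, chr19:11155783-11155902, minus strand: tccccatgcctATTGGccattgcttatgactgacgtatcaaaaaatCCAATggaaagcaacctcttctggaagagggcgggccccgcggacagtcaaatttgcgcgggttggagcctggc

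**Figure D1:**
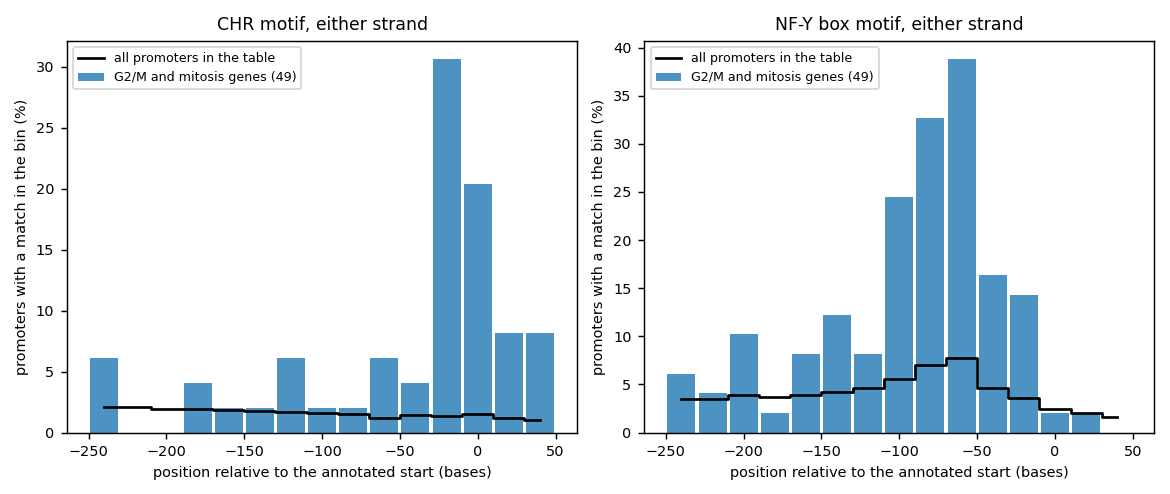
Share of genes (y axis, %) with a match beginning in each 20-base bin by position relative to the annotated start (x axis, bases), for the CHR letters (left) and CCAAT (right). Bars are the 49 G2/M and mitosis genes with a window and the black line is all genes with a window. The bars peak at 30.6% between 30 and 11 bases before the start for the CHR letters and at 38.8% between 70 and 51 bases before it for CCAAT.

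CX-5461 at 3 h lowered nearly the whole set in Mv4;11. Of the 60 genes, 54 fell and 0 rose (edgeR's quasi-likelihood test, adjusted p under 0.05), where 6.61% of all genes tested were lower and 5.05% higher. At an unadjusted p under 0.05 the counts were 57 and 0, and DESeq2 called 55 and 0. The median log2 fold change was -0.58, with a range of -1.95 to 0.13, beside -0.001 over all genes tested. In 57 of the 60 genes every treated library lay below every vehicle library, which held for 14.7% of all genes. Summed over the 60 genes, the level was 4560 ± 177 CPM with CX-5461 and 6598 ± 284 CPM with its vehicle (SD, n = 3 each). The 6 genes that were not called were FOXM1, SPC24, SPC25, PTTG1, NUSAP1 and KIF20B.

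PMR-116 at 3 h moved far fewer of them. In Mv4;11, 17 of the 60 fell and 1 rose, against 13.1% of all genes called lower and 11% called higher. The median was -0.11 (range -0.67 to 0.35), beside 0.004 over all genes. The summed level was 5947 ± 292 CPM with PMR-116 and 6465 ± 355 CPM with its vehicle (SD, n = 3 each). Treated libraries all lay below the vehicle libraries for 19 genes, against 18.1% of all genes. The count of falls rested on single libraries, since it was 7 without treated replicate 3 and 11 without vehicle replicate 2, and 16 at most when 1 library was left out. Scaled by library totals, 12 fell and 5 rose, with a median of -0.06 beside 0.05 over all genes. MT-RNR1, a mitochondrial ribosomal RNA, moved with PMR-116 in both lines. At 3 h it was at 712 to 841 CPM with PMR-116 against 248 to 341 CPM in Mv4;11, and at 704 to 754 CPM against 442 to 501 CPM in KG-1. At 12 h it was at 1166 to 1183 CPM in Mv4;11 against 336 and 365 CPM, with 2607 CPM in the vehicle library that stood apart, and at 835 to 1095 CPM against 462 to 611 CPM in KG-1. With CX-5461 at 3 h MT-RNR1 was at 327 to 397 CPM against 259 to 325 CPM in Mv4;11. In KG-1 it was then at 499 to 538 CPM against 454 to 511 CPM, which overlapped. At 12 h with CX-5461 it was at 527 to 540 CPM against 320 to 337 CPM in Mv4;11. The KG-1 values at 12 h were 578 to 681 CPM against 449 to 550 CPM. The part of MT-RNR1 in the results was not tested.

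After 12 h the compounds came closer. With PMR-116, 46 of 60 genes fell and 0 rose (22.5% and 20.7% of all genes), with a median of -0.40 (range -1.17 to 0.30) beside 0.009 over all genes. An unadjusted p under 0.05 gave 47 and 0, and DESeq2 46 and 0. Without the library with high noncoding RNA, those 46 stayed called and 1 was added. With CX-5461, 58 of 60 fell and 0 rose (16.5% and 14.8% of all genes), with a median of -0.58 (range -0.91 to -0.14) beside 0.036 over all genes. Here an unadjusted p gave 60 and 0, and DESeq2 59 and 0. The summed level was 4406 ± 156 CPM with PMR-116 against 5815 ± 129 CPM, and 4193 ± 287 CPM with CX-5461 against 6013 ± 91 CPM (SD, n = 3 each). All treated libraries lay below all vehicle libraries for 47 genes with PMR-116 (25% of all genes) and for 60 with CX-5461 (22.6% of all genes). Scaling by library totals in place of the trimmed mean of M-values moved the median over all genes to 0.18 with PMR-116 and to 0.12 with CX-5461, and that of the 60 genes to -0.23 and -0.50. It left 37 falls and 2 rises with PMR-116, and 53 and 0 with CX-5461.

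**Figure D2:**
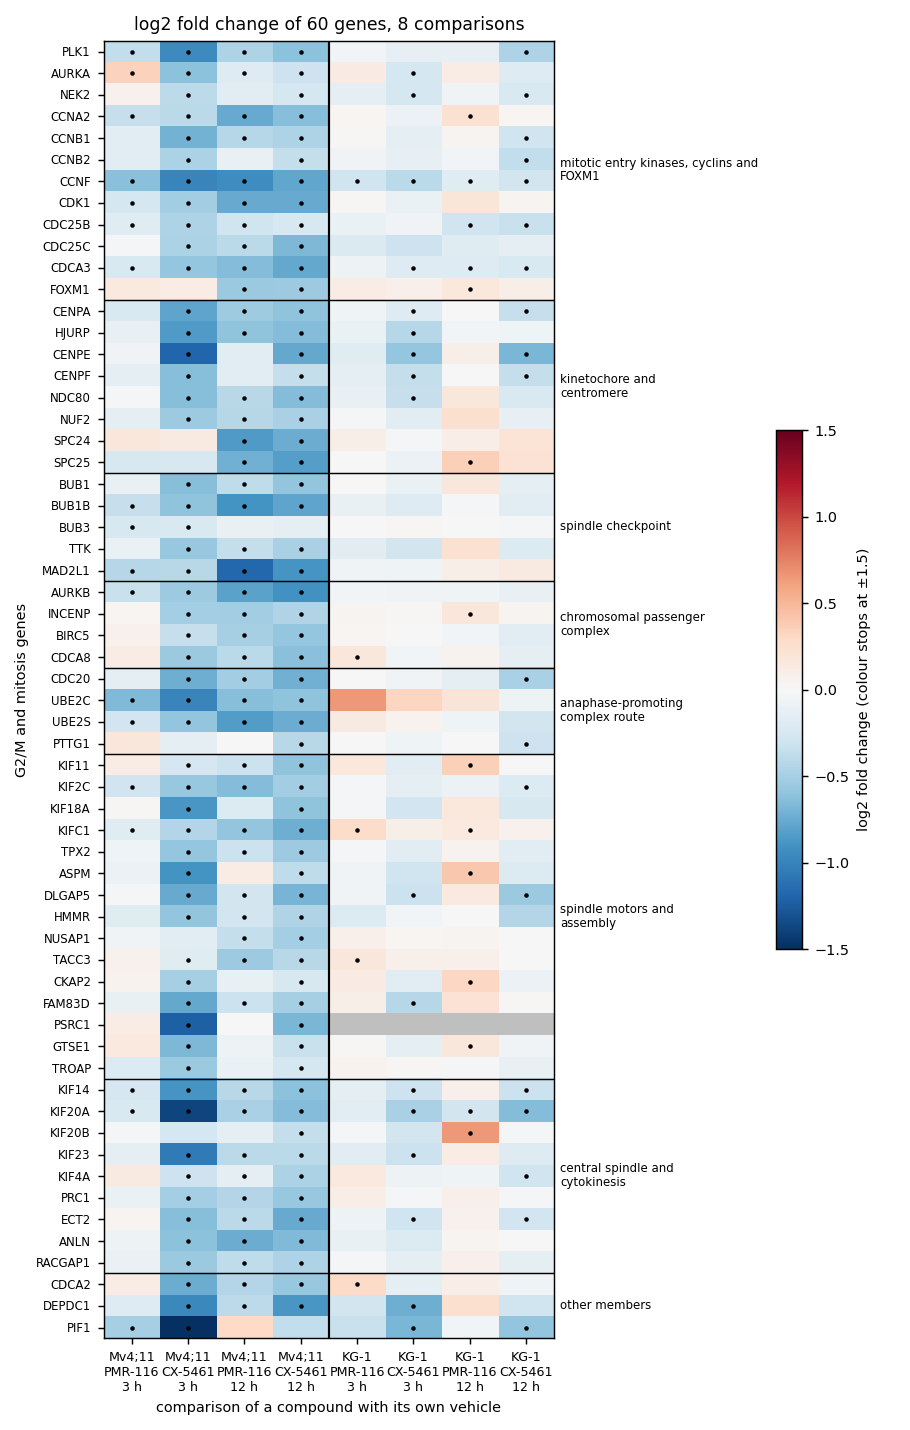
Log2 fold change of each of the 60 genes (rows, grouped by role) against its own vehicle in 8 comparisons (columns, by line, compound and time), with colour giving size and direction, dots marking calls at an adjusted p under 0.05 and grey marking genes not tested. The 4 Mv4;11 columns have 17, 54, 46 and 58 genes called lower, and the 4 KG-1 columns have 1 to 19.

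The kinases, cyclins and phosphatases of mitotic entry held 12 genes in Mv4;11. At 3 h, 6 fell and 1 rose with PMR-116 and 11 fell with CX-5461. At 12 h, 10 fell with PMR-116 and 12 with CX-5461. CCNF, which encodes the F-box protein cyclin F, had the largest fall of the group at 3 h with CX-5461. Its vehicle libraries had 107, 106 and 114 CPM and its treated libraries 51.8, 55.9 and 56.8 CPM, with a log2 fold change of -0.99 ± 0.07 (SE, adjusted p = 5.92e-10). With PMR-116 at 3 h the treated libraries had 81.3, 64.9 and 73.8 CPM against 107, 117 and 116 CPM in the vehicle. In both contrasts the treated libraries were all lower, and CCNF was the only one of the 60 genes called lower in 8 of the 8 compound, line and time combinations.

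PLK1, the polo-like kinase that opens and drives mitosis, had 192, 161 and 164 CPM in the CX-5461 vehicle at 3 h and 92.7, 99.6 and 74.5 CPM after CX-5461. The log2 fold change was -0.95 ± 0.10. With PMR-116 at 3 h it had 165, 124 and 122 CPM against 183, 178 and 167 CPM, a change of -0.36 whose call ended without treated replicate 2 or 3. Each treated group lay below its vehicle, the PMR-116 group by a margin of under 2 CPM at its nearest libraries. CCNB1, the mitotic cyclin B1, fell by 0.71 on the log2 scale with CX-5461 at 3 h. It had 104, 94.7 and 81.9 CPM against 170, 150 and 140 CPM. With PMR-116 at that time it changed by -0.18, which was not called. CDK1, its catalytic partner, had 97.8, 91.9 and 96.2 CPM with CX-5461 at 3 h against 134, 142 and 134 CPM, with no overlap. It fell with both compounds at both times, by -0.27 and -0.52 at 3 h and by -0.76 and -0.75 at 12 h for PMR-116 and CX-5461.

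AURKA, the kinase of spindle poles, went opposite ways at 3 h. With PMR-116 it rose to 106, 112 and 113 CPM from 89.5, 87.0 and 82.7 CPM, and with CX-5461 it fell to 59.4, 59.3 and 56.0 CPM from 89.0, 94.0 and 85.6 CPM. Both treated groups were clear of their vehicles, on opposite sides. The log2 fold changes were 0.35 ± 0.06 (adjusted p = 0.00014) and -0.62. At 12 h AURKA was lower with both compounds, by -0.19 and -0.31. FOXM1, the transcription factor of late cell cycle genes, was not called at 3 h (0.14 with PMR-116 and 0.11 with CX-5461), with 120, 130 and 132 CPM with CX-5461 against 116, 113 and 125 CPM, which overlapped. It fell by 0.56 and 0.54 on the log2 scale at 12 h. CCNA2 (cyclin A2), CDC25B, a phosphatase that activates CDK1, and CDCA3, a trigger of mitotic entry, fell in all 4 Mv4;11 comparisons. CCNB2 (cyclin B2), CDC25C, a second CDK1 phosphatase, and the centrosomal kinase NEK2 were not called with PMR-116 at 3 h and fell by 0.48, 0.47 and 0.39 with CX-5461.

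**Figure D3:**
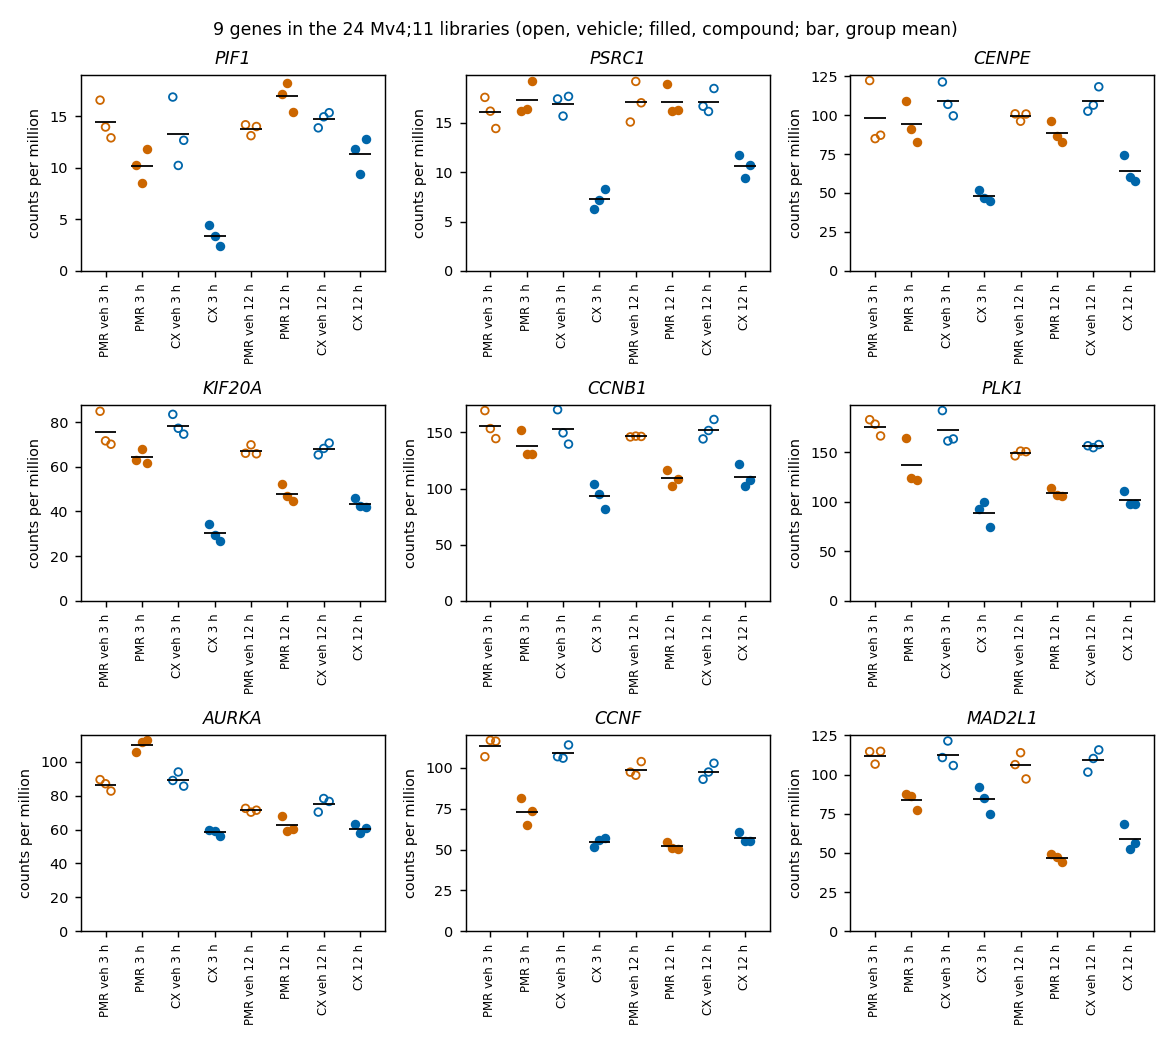
CPM (y axis) in each Mv4;11 library for 9 genes, by treatment and time (x axis). Points are libraries and bars are group means, 3 libraries per group. At 3 h PSRC1 and CENPE stood clear of the vehicle with CX-5461 alone, AURKA was above its vehicle with PMR-116 and below it with CX-5461, and MAD2L1 sat lowest with PMR-116 at 12 h.

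Of the 8 kinetochore and centromere genes, 4 had a called compound difference at 3 h in Mv4;11. With PMR-116, 0 of 8 were called in Mv4;11 (2 at an unadjusted p under 0.05 and 0 by DESeq2), with a median of -0.12 and a largest fall of -0.24 in SPC25, and with CX-5461 6 of 8 fell. CENPE, the kinesin that carries chromosomes along kinetochore microtubules, had 51.6, 46.9 and 44.9 CPM with CX-5461 against 121, 107 and 99.6 CPM. Its log2 fold change was -1.19 ± 0.12 (adjusted p = 2.76e-07). With PMR-116 it had 109, 91.0 and 83.1 CPM against 122, 85.0 and 87.2 CPM, groups that overlapped. CENPA, the centromeric histone, and its chaperone HJURP fell by 0.79 and 0.85 with CX-5461. NDC80 and NUF2, which form the microtubule-binding arm of the NDC80 complex, fell by 0.64 and 0.54.

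The other pair of that complex, SPC24 and SPC25, did not follow NDC80 and NUF2 at 3 h. SPC24 had 32.9, 35.8 and 36.3 CPM with CX-5461 against 30.1, 31.4 and 34.5 CPM, which overlapped, and SPC25 changed by -0.24 and was not called. At 12 h SPC24 had 18.96, 17.4 and 16.4 CPM with CX-5461 against 32.4, 27.6 and 28.3 CPM, and 14.7, 16.3 and 15.6 CPM with PMR-116 against 26.3, 25.9 and 31.6 CPM. Both treated groups then lay below their vehicles. The log2 fold changes at 12 h were -0.74 and -0.85 for SPC24 and -0.83 and -0.72 for SPC25, with CX-5461 and PMR-116. With PMR-116 at 12 h 6 of the 8 genes fell, the exceptions being CENPE (-0.16) and CENPF (-0.15). CENPF is a large fibrous kinetochore protein. All 8 fell with CX-5461 at 12 h.

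Of the 5 spindle checkpoint genes, 3 fell with PMR-116 at 3 h, 5 with CX-5461 at 3 h, and 4 with each at 12 h. BUB1, a kinase of the unattached kinetochore, changed by -0.11 with PMR-116 at 3 h and fell by 0.64 with CX-5461, to 124, 124 and 110 CPM from 193, 182 and 183 CPM. TTK, the kinase that starts checkpoint signalling, changed by -0.10 and -0.57, the second of which was called. MAD2L1, the inhibitor that binds CDC20, had the same size of fall with both compounds at 3 h (-0.42 and -0.42). At 12 h it had 49, 47.4 and 44.5 CPM with PMR-116 against 106, 114 and 97.2 CPM, and 68.4, 52.6 and 56.3 CPM with CX-5461 against 102, 110 and 116 CPM. The treated libraries were well below the vehicle libraries in each case. The log2 fold change with PMR-116, -1.17 ± 0.09 (adjusted p = 1.96e-10), was the largest fall of the 60 genes in that comparison. BUB1B, the BUBR1 kinase of the same inhibitory complex, fell in all 4 comparisons (-0.34, -0.60, -0.89 and -0.79). BUB3, its small WD-repeat partner, fell at 3 h with each compound (-0.24 and -0.23). With CX-5461 it had 401, 358 and 362 CPM against 470, 441 and 404 CPM, the highest treated library lying just under the lowest vehicle library. It was not called at 12 h (-0.11 and -0.14).

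Of the 4 genes of the chromosomal passenger complex, which corrects wrong attachments, 3 had a called compound difference at 3 h in Mv4;11. With PMR-116 only its kinase AURKB fell (-0.33), and INCENP (0.03), BIRC5 (0.06) and CDCA8 (0.11) were not called. With CX-5461 all 4 fell, by 0.55, 0.51, 0.35 and 0.56 in that order. AURKB had 48.1, 50.98 and 47.6 CPM against 74.5, 71.2 and 68.9 CPM, and BIRC5, which encodes survivin, 109, 111 and 98.5 CPM against 135, 139 and 130 CPM, neither with overlap. INCENP is the scaffold of the complex. CDCA8, which encodes borealin, had 78.8, 76.6 and 78.4 CPM with CX-5461 against 124, 111 and 110 CPM, and 127, 123 and 131 CPM with PMR-116 against 125, 114 and 114 CPM. Its libraries stood apart from the vehicle with CX-5461 and overlapped it with PMR-116. At 12 h all 4 fell with both compounds, AURKB most (-0.80 with PMR-116 and -0.91 with CX-5461).

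Among the genes of the anaphase-promoting complex route, the ubiquitin-conjugating enzyme UBE2C had the largest fall at 3 h with both compounds. It had 79.4, 63.7 and 63.7 CPM with PMR-116 against 114, 110 and 105 CPM, and 50.5, 56.9 and 51.2 CPM with CX-5461 against 109, 105 and 100.4 CPM. Neither treated group overlapped its vehicle, and the log2 fold changes were -0.67 and -0.99. UBE2S, which extends the ubiquitin chains, fell in all 4 comparisons (-0.29, -0.59, -0.83 and -0.74). CDC20, the activator that the checkpoint restrains, fell by 0.73 with CX-5461 at 3 h, to 91.2, 98.4 and 75.4 CPM from 157, 146 and 137 CPM, when PMR-116 gave -0.15 and no call. PTTG1, the securin that holds separase, was called in 1 of the 4, with CX-5461 at 12 h (-0.41). At 3 h its 50.6, 49.5 and 43.2 CPM overlapped the 57.4, 54.1 and 46.7 CPM of the vehicle.

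The 15 spindle motors and assembly factors, the largest role, gave the widest gap in counts at 3 h in Mv4;11. A gap in counts grows with the size of a role, so it does not rank the roles. With PMR-116, 2 fell (KIF2C, a microtubule-depolymerising kinesin, and the minus-end motor KIFC1), and with CX-5461, 14 fell, the microtubule bundler NUSAP1 being the exception (-0.16). NUSAP1 had 188, 184 and 187 CPM with CX-5461 against 215, 215 and 195 CPM, lower in every library but not past the threshold. PSRC1, a microtubule-binding protein of the spindle, had 6.31, 7.22 and 8.32 CPM with CX-5461 against 17.4, 15.7 and 17.7 CPM. The log2 fold change was -1.22 ± 0.12 (adjusted p = 1.54e-07). With PMR-116 it had 16.3, 16.5 and 19.3 CPM against 17.6, 16.2 and 14.4 CPM, so that only the CX-5461 group stood clear. ASPM, a spindle pole protein, and KIF18A, a kinesin that damps chromosome movement, fell by 0.90 and 0.87 with CX-5461. DLGAP5 and FAM83D, both spindle factors, fell by 0.75 and 0.77. TPX2, an activator of AURKA, fell by 0.58, the spindle proteins HMMR, CKAP2 and TROAP by 0.60, 0.50 and 0.56, and GTSE1, which tracks growing microtubule ends, by 0.68. The smallest falls were those of KIF11 (-0.26), the motor that pushes spindle poles apart, and TACC3 (-0.19), a microtubule stabiliser. At 12 h, 9 fell with PMR-116 and all 15 with CX-5461, and with PMR-116 PSRC1 (0.005), ASPM (0.11) and GTSE1 (-0.08) were among the 6 with no call.

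The 9 genes of the central spindle and cytokinesis followed the same lines, with 2 falls with PMR-116 and 8 with CX-5461 at 3 h, and 8 and 9 at 12 h. KIF20A, the kinesin that brings the passenger complex to the midzone, had 34.6, 29.4 and 26.6 CPM with CX-5461 at 3 h against 83.4, 77.2 and 74.6 CPM, and changed by -1.38 ± 0.09 (adjusted p = 5.33e-11). With PMR-116 it had 62.8, 67.9 and 61.8 CPM against 84.8, 71.6 and 70.1 CPM. The second shift (-0.23, adjusted p = 0.0464) was small, and its call ended without any 1 of 3 libraries. KIF23, a subunit of centralspindlin, had 33.8, 35.5 and 34.96 CPM with CX-5461 against 77.7, 72.1 and 66.9 CPM, and its partner RACGAP1 fell by 0.56. These treated libraries were all far under the vehicle. ECT2, the exchange factor that switches on RhoA, fell by 0.64, ANLN, the actin scaffold anillin, by 0.61, PRC1, the microtubule bundler, by 0.51, and the kinesin KIF14 by 0.89. KIF4A, a chromatin-bound kinesin, fell by 0.31. KIF20B, a kinesin of late cytokinesis, had 99.9, 93.2 and 86.8 CPM with CX-5461 at 3 h against 120, 107 and 108 CPM. That change (-0.26) was not called although the groups did not overlap, and KIF20B fell by 0.36 with CX-5461 at 12 h.

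PIF1, a DNA helicase whose message peaks late in the cycle, had the largest fall of the 60 genes. At 3 h it had 4.48, 3.34 and 2.37 CPM with CX-5461 against 16.9, 10.2 and 12.7 CPM, and 10.3, 8.50 and 11.9 CPM with PMR-116 against 16.6, 13.95 and 12.9 CPM. Both treated groups were below their vehicles. The log2 fold changes were -1.95 ± 0.19 (adjusted p = 1.06e-07) and -0.50 (adjusted p = 0.0392), and the second call ended without any 1 of 4 libraries. By 12 h neither was called: PIF1 had 17.1, 18.3 and 15.4 CPM with PMR-116 against 14.2, 13.1 and 14 CPM (0.30) and 11.8, 9.43 and 12.8 CPM with CX-5461 against 13.9, 14.9 and 15.3 CPM (-0.37). CDCA2, a phosphatase-targeting subunit on chromatin, changed by 0.11 with PMR-116 and fell by 0.74 with CX-5461 at 3 h, to 52.99, 47.1 and 49.1 CPM from 87.2, 82.8 and 79.9 CPM. DEPDC1 fell by 0.96 with CX-5461 at 3 h.

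In KG-1 the same genes moved less. With CX-5461 at 3 h, 17 of the 59 tested genes fell and 0 rose (1.58% and 1.85% of all genes), with 31 and 0 at an unadjusted p under 0.05 and 19 and 0 by DESeq2. With CX-5461 at 12 h, 19 fell and 0 rose (1.18% and 1.36% of all genes), with 32 and 2 at an unadjusted p and 26 and 0 by DESeq2. The medians were -0.14 and -0.16, beside -0.005 and 0.005 over all genes. The summed level was 5190 ± 179 CPM at 3 h against 5690 ± 106 CPM, and 5051 ± 160 CPM at 12 h against 5707 ± 206 CPM (SD, n = 4 each). Every treated library lay below every vehicle library for 26 genes at 3 h (5.08% of all genes) and 27 at 12 h (3.64% of all genes). The count at 3 h was 8 without replicate 2 of either the treated or the vehicle group. Fitting only the groups compared gave 10 falls at 3 h and 6 at 12 h.

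KIF20A was again among the genes that fell most. In KG-1 it had 43.8, 36.8, 37.5 and 39.97 CPM with CX-5461 at 3 h against 54.0, 58.3, 52.0 and 56.4 CPM, and 35.1, 32.5, 38.3 and 42.9 CPM at 12 h against 59.5, 54.0, 55.1 and 64.4 CPM. The log2 fold changes were -0.48 ± 0.07 and -0.65 ± 0.07 (adjusted p = 0.000114 and 2.18e-06), and no treated library reached a vehicle library. CENPE had 17.3, 16.6, 22.4 and 20.7 CPM with CX-5461 at 3 h against 28.95, 31.5, 26.9 and 28 CPM, and fell by 0.58 at 3 h and 0.68 at 12 h. Its 3 h call ended without any 1 of 3 libraries. Between the KG-1 vehicles at 3 h CENPE was higher by 0.31 in the CX-5461 vehicle (edgeR, unadjusted p = 0.0357), which was not called. The treated groups averaged 19.3 CPM of CENPE with CX-5461 and 20.4 CPM with PMR-116. KIF14 and KIF11 were higher in that vehicle too (0.175 and 0.17, unadjusted p = 0.03 and 0.0387), also not called. By role, CX-5461 at 3 h lowered 4 of 12 entry genes, 5 of 8 kinetochore genes, 2 of 14 spindle motors and assembly factors, 4 of 9 cytokinesis genes, and PIF1 and DEPDC1. In KG-1 at 3 h, 0 checkpoint, 0 passenger complex and 0 anaphase route genes were called, with 2 checkpoint genes and 0 of the others at an unadjusted p under 0.05 and 0 by DESeq2.

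With CX-5461 in KG-1, 8 genes were called lower at 12 h and not at 3 h. They were PLK1, CCNB1, CCNB2, CDC25B, CDC20, PTTG1, KIF2C and KIF4A. A call at 1 time alone is no difference between times. In the test of that difference PLK1 and CDC20 were called, while CCNB1 (-0.16) and CCNB2 (-0.25) were not. PLK1 had 234, 225, 204 and 214 CPM at 3 h against 246, 254, 233 and 223 CPM, which overlapped. At 12 h it had 179, 175, 186 and 192 CPM against 263, 255, 244 and 245 CPM, and changed by -0.46 ± 0.05 (adjusted p = 5.63e-06). CDC20 had 141, 134, 141 and 149 CPM at 12 h against 213, 199, 193 and 186 CPM, a change of -0.48. Here the treated libraries were all lower. Of the calls with CX-5461 in KG-1, 11 were shared between the times, 64.7% of those at 3 h and 57.9% of those at 12 h. All 17 genes called lower at 3 h in KG-1 were called lower in Mv4;11 at that time, and 18 of the 19 at 12 h were, PIF1 being the exception. In Mv4;11, 54 of the 60 genes were called lower at 3 h and 58 at 12 h. Most of any such set would therefore overlap, and nothing is read from it.

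PMR-116 in KG-1 gave few and mixed calls. At 3 h, 1 gene fell and 4 rose (3.71% and 3.61% of all genes), with a median of -0.02. CCNF fell, with 86.2, 83.4, 77.9 and 83.5 CPM against 102, 104, 97.1 and 103 CPM (-0.30 ± 0.05), and CDCA8, KIFC1, TACC3 and CDCA2 rose by 0.17 to 0.29. The rises numbered 2 without vehicle replicate 1 or treated replicate 2 or 4. At 12 h, 4 fell (CCNF, CDC25B, CDCA3 and KIF20A) and 10 rose (4.74% and 4.73% of all genes), with a median of 0.08. The 10 were CCNA2, FOXM1, SPC25, INCENP, KIF11, KIFC1, ASPM, CKAP2, GTSE1 and KIF20B. KIF20B had 65.2, 72.3, 95.1 and 58.4 CPM against 47.3, 44, 46.3 and 47.2 CPM, and rose by 0.66 ± 0.15 (adjusted p = 0.00408). Its treated libraries were all above the vehicle and spread widely. These counts were thin: the rises numbered 4 without vehicle replicate 2, 5 without treated replicate 2 or 3, and 6 without treated replicate 4, and the falls 2 without vehicle replicate 4. Fitting only the groups compared gave 3 falls and 1 rise at 3 h and 3 of each at 12 h, and fitting without a filter 1 of each at 3 h and 2 falls and 6 rises at 12 h.

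**Figure D4:**
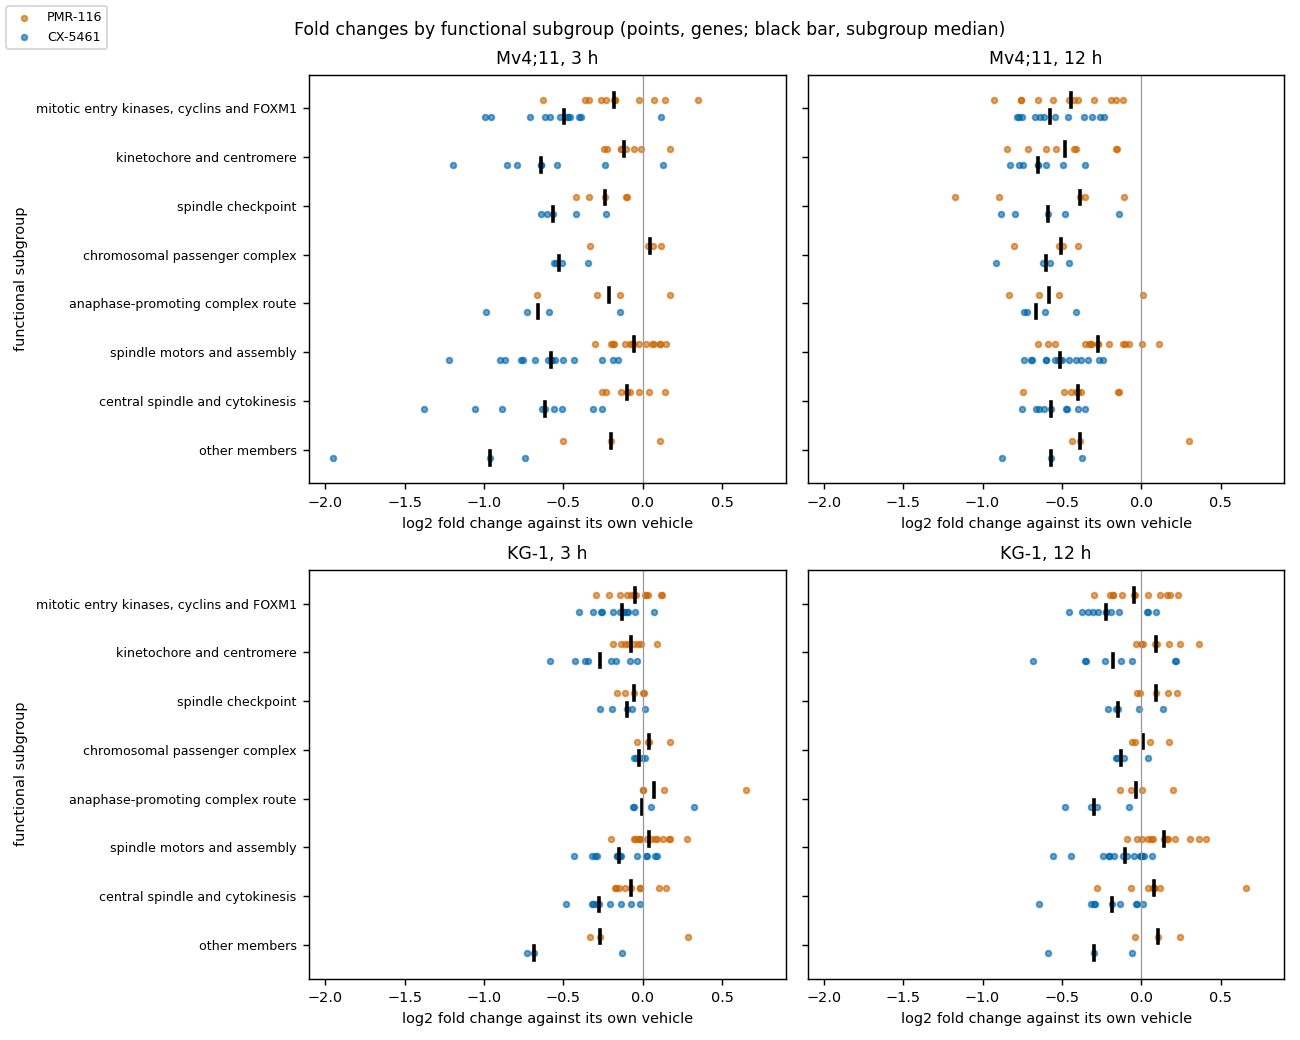
Log2 fold change against its own vehicle (x axis) for each gene (points), by role (rows), with PMR-116 in orange and CX-5461 in blue and the black bar at each role's median, in 4 panels by line and time. At 3 h in Mv4;11 the blue medians lie between -0.96 and -0.50 and the orange between -0.24 and 0.05, and in KG-1 most points lie near 0.

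The medians of spindle, kinetochore and cytokinesis genes were set side by side in each comparison. With CX-5461 at 3 h in Mv4;11 they were -0.58 for the 15 spindle motors and assembly factors, -0.64 for the 8 kinetochore and centromere genes and -0.61 for the 9 cytokinesis genes. At 12 h they were -0.51, -0.65 and -0.57. With PMR-116 they were -0.05, -0.12 and -0.10 at 3 h and -0.27, -0.48 and -0.40 at 12 h. In KG-1 with CX-5461 at 3 h they were -0.15, -0.27 and -0.27. Spread within a role exceeded these gaps, as in the kinetochore genes, which ran from -1.19 (CENPE) to 0.13 (SPC24) with CX-5461 at 3 h in Mv4;11. No test was made between roles.

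The compounds were compared directly, at equal dose and time, as the effect of CX-5461 minus the effect of PMR-116, in 4 comparisons with p-values adjusted over all genes of each. In Mv4;11 at 3 h, 32 of the 60 differences were called lower (a deeper fall with CX-5461) and 0 higher, where 0.61% and 0.732% of all genes were. An unadjusted p under 0.05 gave 52 and 0 and DESeq2 39 and 0. The median difference was -0.46 beside 0.008 over all genes, and 57 of 60 were below 0. Between the vehicles of the compounds 0 of 60 genes were called at either time, with 0 at 3 h and 2 at 12 h (DEPDC1 and KIF11) at an unadjusted p under 0.05 and 0 by DESeq2. All 17 genes called lower with PMR-116 were among the 54 called lower with CX-5461, 31.5% of the latter. As 54 of the 60 were called lower with CX-5461, most of any 17 genes would be among them.

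The largest compound differences at 3 h in Mv4;11 were PIF1 (-1.45 ± 0.26, adjusted p = 0.00356), PSRC1 (-1.33 ± 0.17, adjusted p = 0.000136), KIF20A (-1.14 ± 0.12, adjusted p = 2.17e-05) and CENPE (-1.14 ± 0.17, adjusted p = 0.000874). AURKA followed at -0.97 ± 0.09, the sum of its rise and its fall. Each of these 5 calls held with any 1 library left out. By role the called differences numbered 9 of 15 in spindle motors and assembly, 7 of 9 in cytokinesis, 4 of 8 in the kinetochore, 3 of 12 in mitotic entry, 3 of 4 in the passenger complex, 2 of 5 in the checkpoint and 1 of 4 in the anaphase route, with CDCA2, DEPDC1 and PIF1 besides. PLK1 (-0.59) and CCNB1 (-0.53) were called too, and each of those calls ended without any 1 of 7 libraries.

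For BUB3, MAD2L1, FOXM1, CCNA2 and SPC24 the compound difference was estimated near 0. Their 95% intervals ranged from -0.30 to 0.26, so differences within that range are not excluded. At 3 h in Mv4;11 the difference was 0.007 for BUB3 (95% interval -0.18 to 0.19), 0.002 for MAD2L1 (-0.26 to 0.26), -0.03 for FOXM1 (-0.21 to 0.15), -0.06 for CCNA2 (-0.30 to 0.18) and -0.04 for SPC24 (-0.30 to 0.22). BUB3, MAD2L1 and CCNA2 had fallen with both compounds, and FOXM1 and SPC24 with neither. CCNF differed by -0.36 (-0.57 to -0.15), which was not called (adjusted p = 0.0772).

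At 12 h in Mv4;11 fewer differences passed. There were 7 lower and 0 higher (1.27% and 3.84% of all genes), with 15 and 1 at an unadjusted p under 0.05 and 9 and 0 by DESeq2, and a median of -0.13 beside 0.031 over all genes. The 7 were PSRC1 (-0.69 ± 0.17, adjusted p = 0.0138), CENPE (-0.61), DEPDC1 (-0.49), DLGAP5 (-0.43), PTTG1 (-0.42), KIF4A (-0.33) and KIF11 (-0.28). DEPDC1 and KIF11 also differed between the vehicles at an unadjusted p, by 0.37 and 0.12, higher in the CX-5461 vehicle. DEPDC1 had 26.1, 25.9 and 22.5 CPM with CX-5461 against 43.7, 45.6 and 47.5 CPM, and 29.3, 26.3 and 25.3 CPM with PMR-116 against 38.4, 34.6 and 32.9 CPM. None of the 7 was called under every omission of 1 library, and the count fell to between 1 and 4 without any 1 of 9 libraries. It was 1 without replicate 3 of the CX-5461 vehicle, 2 without CX-5461 replicate 3 or PMR-116 replicate 1, 3 without CX-5461 replicate 2 or PMR-116 replicate 2, and 4 without any of the 3 PMR-116 vehicle replicates or CX-5461 vehicle replicate 2. PSRC1 at 12 h had 11.8, 9.40 and 10.7 CPM with CX-5461 against 16.7, 16.2 and 18.5 CPM, and 18.97, 16.2 and 16.3 CPM with PMR-116 against 15.1, 19.2 and 17.1 CPM. The CX-5461 libraries alone stood apart from their vehicle. MAD2L1 leaned the other way (0.29, interval 0.02 to 0.55, adjusted p = 0.227), and KIF20A differed by -0.16 (-0.41 to 0.09).

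In KG-1 no compound difference was called lower or higher at 3 h (0% and 0.0107% of all genes), with 16 lower and 0 higher at an unadjusted p under 0.05 and 2 and 0 by DESeq2. At 12 h 1 was called lower and 0 higher (0.0215% and 0.0269% of all genes), with 32 and 0 at an unadjusted p and 13 and 0 by DESeq2. It was DLGAP5, at -0.70 ± 0.13 (adjusted p = 0.0369). DLGAP5 had 37.9, 35.7, 35.5 and 40.98 CPM with CX-5461 at 12 h against 58.9, 44.2, 56.8 and 61.2 CPM, and 57.6, 56, 68.6 and 56.5 CPM with PMR-116 against 55.6, 52.6, 54.4 and 53.9 CPM. The call ended without any 1 of 10 of the 16 libraries: replicates 1, 3 and 4 of both vehicles, replicates 1 and 2 of CX-5461, and replicates 3 and 4 of PMR-116. Fitting only the groups compared ended it as well (adjusted p = 0.174), and library totals or a mean of at least 1 CPM gave 4 called genes, DLGAP5 among them. A block for the replicate number raised the count of called differences at both times, and by far the most at 12 h. Those counts are given with the other dependences on processing. The small count of calls in KG-1 thus depends on treating the libraries as unpaired, and the labels do not say whether they are. The medians were -0.12 at 3 h and -0.22 at 12 h, with 56 of 59 differences below 0 at each time.

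**Figure D5:**
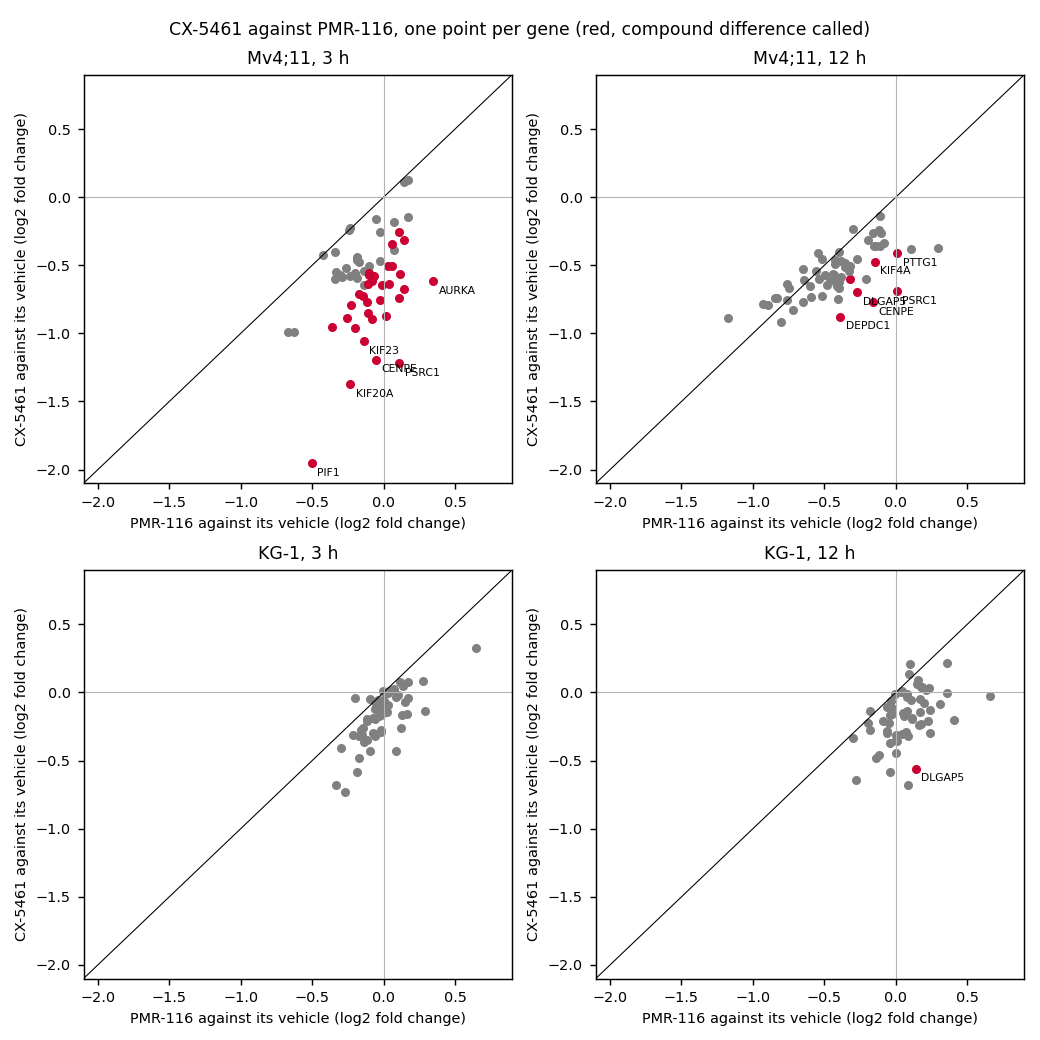
Log2 fold change with CX-5461 (y axis) against that with PMR-116 (x axis), 1 point per gene, by line and time, with red for a called compound difference and the diagonal marking equal change. At 3 h in Mv4;11, 57 of 60 points lie below the diagonal and 32 are red. In KG-1 56 of 59 lie below it at each time, and 1 is red at 12 h.

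With time, the effect of PMR-116 on these genes deepened in Mv4;11. Taking its effect at 12 h minus that at 3 h, 32 genes were lower and 1 higher (15.4% and 12.2% of all genes), with a median of -0.29 beside -0.02 over all genes. Scaled by library totals, 21 were lower and 2 higher, the median was -0.16, and the median of all genes was 0.11. SPC24 (-1.02 ± 0.13), MAD2L1 (-0.75) and FOXM1 (-0.70) went lowest, and PIF1 went up (0.80, adjusted p = 0.0169). The PIF1 call ended without vehicle replicate 1 or treated replicate 2 at 3 h, or treated replicate 2 at 12 h.

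With CX-5461, single genes moved both ways between times in Mv4;11. There were 9 lower and 8 higher (9.15% and 7.59% of all genes), with a median of 0.06 beside 0.02 over all genes. Scaled by library totals, 7 were lower and 14 higher, with a median of 0.13 beside 0.09 over all genes. PIF1 (1.58 ± 0.26, adjusted p = 0.000115), KIF20A (0.73), KIF23 (0.65), PSRC1 (0.53), ASPM (0.52), UBE2C (0.38), GTSE1 (0.34) and AURKA (0.31) were less lowered at 12 h than at 3 h. SPC24 (-0.87), FOXM1 (-0.66), SPC25 (-0.59), MAD2L1 (-0.47), AURKB (-0.37), NUSAP1 (-0.36), KIF11 (-0.35), KIFC1 (-0.30) and TACC3 (-0.23) were more lowered. The 8 became 3 without CX-5461 replicate 1 at 12 h, 4 without vehicle replicate 1 at either time, and 5 without CX-5461 replicate 3 at 3 h. Of the genes called lower, 52 were shared by the times, 96.3% of the 54 at 3 h and 89.7% of the 58 at 12 h. With nearly all 60 genes called at each time, a large overlap was all but fixed. Across the 60 genes the sizes at 3 h and 12 h had a Pearson correlation of 0.11. That correlation is a description over genes that share libraries, and genes are not independent replicates.

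The vehicle itself changed with time. In Mv4;11, 29 of 60 genes were lower at 12 h than at 3 h and 0 higher (7.42% and 5.44% of all genes), with a median of -0.16. That count was 17 without PMR-116 vehicle replicate 3 at 12 h, 18 without CX-5461 vehicle replicate 1 at 3 h or replicate 3 at 12 h, and 19 without CX-5461 vehicle replicate 2 at 3 h. In KG-1, 11 of 59 were lower and 13 higher (15.4% and 16.2% of all genes). Between times in KG-1 the compound effects gave few calls. For PMR-116, 0 genes were called (0.768% of all genes lower and 0.918% higher), with 2 lower and 9 higher at an unadjusted p under 0.05 and 0 and 1 by DESeq2, and leaving out vehicle replicate 1 at 3 h gave 1 higher. For CX-5461, 2 were lower at 12 h, CDC20 (-0.43) and PLK1 (-0.34), and 0 higher (0.118% and 0.145% of all genes). Neither of the 2 was called under every omission of 1 library, and the count was 0 or 1 without any 1 of 14 of the 16 libraries, CX-5461 replicate 3 and vehicle replicate 2 at 3 h being the exceptions.

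The lines were compared as the effect in Mv4;11 minus that in KG-1. With CX-5461 at 3 h, 30 of 60 genes had a lower effect in Mv4;11 and 0 a higher one (1.92% and 1.37% of all genes), with a median of -0.41. KIF20A (-0.88 ± 0.12, adjusted p = 0.00046) and PLK1 (-0.82 ± 0.12, adjusted p = 0.00117) were among them. With CX-5461 at 12 h, 31 were lower and 0 higher (9.21% and 7.51%), with a median of -0.35. With PMR-116 at 12 h, 44 were lower and 0 higher (15.8% and 10.2%), with a median of -0.50, led by MAD2L1 (-1.28 ± 0.13), SPC25 (-1.10) and CCNA2 (-1.01). With PMR-116 at 3 h, 6 were lower and 0 higher (4.4% and 2.54%). That count was 11 without treated replicate 1 in Mv4;11. It was 3 without replicate 2 or 3 of the treated or vehicle groups in Mv4;11, without any 1 treated replicate in KG-1, or without vehicle replicate 3 in KG-1. No gene was called higher in any of the 4 comparisons, with 2 for PMR-116 at 3 h and 0 in the others at an unadjusted p under 0.05, and 1 and 0 by DESeq2. PSRC1, at or near 0 in KG-1, entered these fits with wide errors and was not called, and UBE2C was at 0.17 to 0.92 CPM in KG-1. Line and batch cannot be told apart in any of the 4.

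A second list of 98 genes of mitosis outside the 60 gave the setting. With CX-5461 at 3 h in Mv4;11, 28 of 98 fell and 1 rose (MYBL1, 0.76), with a median of -0.11. Of all genes 6.61% fell and 5.05% rose, and of the 60 genes 54 fell and 0 rose. Both lists were chosen with earlier results known, so nothing is read from the gap between them. Of the 17 spindle and cytokinesis genes in the second list 12 fell (median -0.38). They included BORA (-0.86), a cofactor of PLK1 activation, and ARHGAP11A (-0.72). Of its 31 kinetochore and centromere genes 4 fell. At 12 h the list fell broadly, with 73 lower and 4 higher with PMR-116 (22.5% and 20.7% of all genes). With CX-5461, 81 were lower and 3 higher (16.5% and 14.8% of all genes). Among those lowered, with PMR-116 and CX-5461 in that order, were the B-Myb gene MYBL2 (-1.91 and -1.40), CDC25A (-1.89 and -1.06), PKMYT1 (-1.68 and -1.11), CENPX (-1.63 and -0.93) and CENPM (-1.62 and -1.03). Among the 4 and 3 that rose, picked out after its values were seen, was RBL2 (0.33 and 0.31), which encodes the DREAM subunit p130. The part of DREAM in these changes was not tested.

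Genes of G1/S and DNA replication, 39 in number, moved on another schedule. At 3 h in Mv4;11, 2 fell and 3 rose with CX-5461 (median 0.04), where 6.61% and 5.05% of all genes did. With PMR-116, 7 fell and 2 rose (median -0.02), where 13.1% and 11% of all genes did. At 12 h all 39 fell with both, where 16.5% of all genes fell with CX-5461 and 22.5% with PMR-116. The medians were -0.997 for CX-5461 and -1.43 for PMR-116. The compound difference at 12 h was higher for 25 of the 39 and lower for 0 (3.84% and 1.27% of all genes), a deeper fall with PMR-116. The counts were 36 and 0 at an unadjusted p under 0.05 and 33 and 0 by DESeq2. In KG-1 at 12 h, 2 fell and 2 rose with PMR-116 (4.74% and 4.73% of all genes). With CX-5461, 0 fell and 12 rose there (1.18% and 1.36% of all genes), with 0 and 26 at an unadjusted p and 0 and 14 by DESeq2. CDKN1A, the p53 target that encodes the inhibitor p21, had 1170, 1089 and 1268 CPM with CX-5461 at 3 h in Mv4;11 against 99.0, 104 and 122 CPM, and 661, 625 and 650 CPM with PMR-116 against 100.4, 118 and 124 CPM. It rose by 3.44 and 2.50 on the log2 scale at 3 h and by 2.23 and 2.03 at 12 h. In KG-1 it was between 1.55 and 5.27 CPM in every library, and its rise was called only with CX-5461 at 12 h (0.96, adjusted p = 0.0224). The part of CDKN1A in the changes of the 60 genes was not tested.

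The early fall covered overlapping ranges in genes with and without the CHR letters. With CX-5461 at 3 h in Mv4;11 the median log2 fold change was -0.61 (range -1.95 to -0.16) for the 37 genes whose window holds the CHR letters, -0.53 (range -1.38 to 0.13) for the 12 whose window lacks them, and -0.57 for the 11 with no window. Of the windows printed above, that of PIF1 holds the letters of both elements, that of KIF20A CCAAT alone and that of CENPE neither. These 3 were printed as genes lowered at least 2-fold, so nothing is read from their falls. These medians describe the genes, and no test was made between the sets.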

How the data were processed

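RNA was sequenced from 56 libraries of Mv4;11 and KG-1. The deposited tables hold estimated counts per gene symbol, with a table for each line. Salmon 1.5.2, DESeq2 and GRCh38.p13 appear in the submitters' processing notes, their roles unstated, and the counting's strand setting is not given in the sources used here, so overlapping antisense genes may share reads. The Mv4;11 table has 24 further columns that match no sample, not used here.

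The estimated counts were rounded and fitted with edgeR 4.0.16 (quasi-likelihood test, R 4.3.3), the 8 groups of a line together, with trimmed mean of M-values scaling. Genes passed filterByExpr (minimum count 10, total 15), 20495 in Mv4;11 and 18618 in KG-1. Line differences came from joint fits of the 4 groups concerned. Adjusted p is Benjamini-Hochberg over all genes of a comparison, 2-sided, and a gene was called under 0.05. ± after a log2 fold change is the standard error (absolute log2 fold change over the root of its F). CPM use the scaled library sizes. DESeq2 1.42.0 was an alternative, with scalings, filters, group choice, a replicate block and omission of each library. The fit was tested on simulated data.

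The members and lists were chosen with earlier results of these data known. Named genes were, by rule, those with the largest and smallest change of each role at 3 h with CX-5461 in Mv4;11, with PLK1, CCNB1, CDK1, AURKB and CDC20 as fixed anchors, for differences the 4 largest called and any opposite, and in other lists the largest called changes. Other genes are named to account for each role's members.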

Additional observations from a re-analysis of the deposited data

Results flagged for a closer look

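The 3 KG-1 values set apart here lie outside the spread of their own group. CDCA2 in KG-1 replicate 2 with CX-5461 at 3 h was at 19.9 CPM, where the other 3 libraries were at 23.5 to 24.2 CPM. UBE2C in KG-1 replicate 3 of the CX-5461 vehicle at 12 h was at 0.48 CPM, against 0.319 to 0.34 CPM. The summed level of the 60 genes in KG-1 replicate 4 with CX-5461 at 12 h was 5290 CPM, against 4950 to 4990 CPM. In all 168 groups of values were checked, and chance sets apart about 1 in 20.

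Effects differed between times, by the test of the difference. With PMR-116 in Mv4;11 33 of the 60 genes differed between 12 h and 3 h, with SPC24 at -1.02, PIF1 at 0.80, MAD2L1 at -0.75 and FOXM1 at -0.70. With CX-5461 in Mv4;11 17 differed, with PIF1 at 1.58, SPC24 at -0.87, KIF20A at 0.73 and FOXM1 at -0.66. With CX-5461 in KG-1 2 differed, CDC20 at -0.43 and PLK1 at -0.34.

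Effects also differed between Mv4;11 and KG-1, where line and batch cannot be told apart. With PMR-116 at 3 h 6 genes differed, with UBE2C at -1.38, KIFC1 at -0.46, CCNA2 at -0.38 and MAD2L1 at -0.37. UBE2C was at 0.17 to 0.92 CPM in KG-1. With CX-5461 at 3 h 30 differed, with UBE2C at -1.27, PIF1 at -1.26, KIF20A at -0.88 and PLK1 at -0.82. With PMR-116 at 12 h 44 differed, with MAD2L1 at -1.28, SPC25 at -1.10, CCNA2 at -1.01 and SPC24 at -0.97. With CX-5461 at 12 h 31 differed, with SPC25 at -1.01, MAD2L1 at -0.99, SPC24 at -0.92 and AURKB at -0.77.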

How the results depend on the processing

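Of 872 alternative counts of called genes, 762 stayed within 1.5 times the reported count and 110 moved. Of 9255 alternatives for named genes, 352 lost their call, 104 gained one and 0 reversed. Counts below are of the 60 genes, with the reported count first.

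With the replicate block, KG-1 CX-5461 falls at 3 h went from 17 to 26 and its rises at 12 h from 0 to 1. Compound differences called lower in KG-1 went from 0 to 2 at 3 h and from 1 to 17 at 12 h. Time differences in KG-1 went from 0 lower and 0 higher to 1 and 2 for PMR-116 and from 2 and 0 to 5 and 2 for CX-5461. The PMR-116 line difference at 3 h went from 6 to 12. Same-numbered libraries deviated together at a correlation over 0.1 in 14 of 16 KG-1 pairs and 5 of 12 Mv4;11 pairs, so the numbers were not treated as a pairing. As a hint from the data and not the design, 30 of 32 KG-1 and 22 of 24 Mv4;11 libraries correlated best with their own number. The block moved no other count of calls by over 1.5 times.

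With library totals, rises with PMR-116 in Mv4;11 went from 1 to 5 at 3 h and from 0 to 2 at 12 h. Compound differences called lower went from 7 to 11 in Mv4;11 and from 1 to 4 in KG-1 at 12 h. Time differences in Mv4;11 went from 32 lower and 1 higher to 21 and 2 for PMR-116, and from 8 to 14 higher for CX-5461. The PMR-116 line difference at 3 h went from 6 lower and 0 higher to 3 and 1, and vehicle falls with time in Mv4;11 from 29 to 19. A mean of at least 1 CPM gave 2 rises in place of 1 with PMR-116 at 3 h in Mv4;11, 4 compound differences in place of 1 in KG-1 at 12 h, and 3 lower and 1 higher in place of 6 and 0 for the PMR-116 line difference at 3 h. Without a filter, PMR-116 gave 2 rises in place of 0 at 12 h in Mv4;11, 1 rise in place of 4 at 3 h in KG-1, and 2 falls and 6 rises in place of 4 and 10 at 12 h there. It also gave 0 in place of 2 for the CX-5461 time difference in KG-1, and 1 gene higher in place of 0 between the Mv4;11 vehicles at 12 h.

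Fitting only the groups compared, KG-1 PMR-116 at 3 h gave 3 falls and 1 rise in place of 1 and 4, and at 12 h 3 rises in place of 10. CX-5461 gave 10 falls in place of 17 at 3 h and 6 in place of 19 at 12 h, compound differences 0 in place of 1 at 12 h, and the CX-5461 time difference 0 in place of 2. DESeq2 gave compound differences in KG-1 of 2 in place of 0 at 3 h and 13 in place of 1 at 12 h. It gave 1 and 2 higher in place of 0 for the PMR-116 and CX-5461 time differences in KG-1, and 1 higher in place of 0 for the PMR-116 line difference at 3 h, as did a fit of all 16 groups. The cause of these shifts was not tested.

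With 1 library left out, falls in Mv4;11 ranged from 7 to 16 (PMR-116, 3 h, with rises of 1 to 2), 50 to 55 (CX-5461, 3 h), 43 to 47 (PMR-116, 12 h) and 54 to 59 (CX-5461, 12 h). In KG-1 they ranged from 8 to 16 (CX-5461, 3 h), 15 to 22 (CX-5461, 12 h) and 2 to 4 (PMR-116, 12 h), with PMR-116 rises of 2 to 3 at 3 h and 4 to 9 at 12 h. Compound differences ranged from 25 to 35 and 1 to 7 in Mv4;11 and from 0 to 1 in KG-1 at 12 h. Time differences ranged from 0 to 1 higher (PMR-116, both lines), 3 to 8 higher (CX-5461, Mv4;11) and 0 to 2 lower (CX-5461, KG-1). The PMR-116 line difference at 3 h ranged from 3 to 11, and vehicle falls with time in Mv4;11 from 17 to 25. UBE2C and PSRC1 were under 1 CPM in every KG-1 library, where low counts limit their precision.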
